A study of Mus musculus with 12 samples.

Results

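Homeostatic microglia genes are the genes by which the resident macrophages of brain and spinal cord are recognised when they are not engaged in a response to damage. The 9 genes described here were taken by name: the receptors CSF1R, CX3CR1, P2RY12, P2RY13 and GPR34, the surface proteins TMEM119 and SIGLECH, the secreted protein OLFML3 and the transcription factor SALL1. Of these 9 genes, 9 were listed above the lesion and 5 below it, among 13647 and 12338 genes listed at these sites. GPR34, P2RY12, P2RY13 and SIGLECH had no row below the lesion and were not analysed there.

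The libraries came from spinal cord of male mice that express human ApoE4, operated on at 4 months of age with a motor-incomplete contusion at thoracic level 9. Tissue just rostral (above) or just caudal (below) of the lesion epicenter was taken 14 days later. Mice labelled homozygous for synaptojanin (synj1+/+) have both normal alleles of synaptojanin 1, a lipid phosphatase of the synapse, and mice labelled heterozygous (synj1+/-) have 1 inactive allele, in all cells of the body. Genotype and site give 4 groups of 3 libraries, all of them ApoE4 and all injured, and sham-operated or ApoE3 cord was not analysed here. The comparison asks whether lowering synj1 altered gene expression next to the lesion in these mice.

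The table gives 1 value per gene and group, in which the 3 libraries are combined. A spread between libraries, a standard error and a test were therefore out of reach, and every difference given here is a difference between combined values without a replicate check. The number of reads behind a value cannot be read from the table. The values were read as FPKM (fragments scaled to transcript length and library size) with 1 added, because the lowest is exactly 1, and they are printed as listed. Each ratio divides the value labelled synj1+/- by the value labelled synj1+/+ at the same site, and a pair of values is given in the order synj1+/+, synj1+/-. The median log2 ratio of all genes was 0.00 above and 0.01 below the lesion, so the groups of a site lay on a common scale. SYNJ1 itself stood at 1905 under the label synj1+/+ and at 2404 under the label synj1+/- rostrally, and at 1847 and 2593 caudally. The targeted gene was thus higher where the label says that it has an inactive allele, and each direction given here is that of the labels.

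Microglia depend on survival signals through CSF1R, sense neurons through the chemokine receptor CX3CR1, and read extracellular nucleotides through P2Y receptors. SALL1 keeps their gene program, which transforming growth factor beta also sustains. After damage in the central nervous system, microglia lose much of this program, while monocyte-derived macrophages that share CSF1R and CX3CR1 with them enter the tissue. RNA was taken from whole tissue, so fewer microglia and less RNA per microglial cell cannot be told apart.

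Above the lesion, 7 of the 9 homeostatic genes were lower in cord labelled synj1+/-, where 51.0% of all genes were lower, and the 9 genes had a median log2 ratio of -0.26. Below the lesion, 4 of the 5 listed genes were lower, against 47.2% of all genes, with a median of -0.32. The differences were small. At a threshold of a value at least 20% lower, 2 of 9 members were past the threshold above the lesion, where 7.45% of all genes were, and 2 of 5 below it, where 11.5% of all genes were. No member was higher by the same fold at either site, where 4.18% of all genes above and 8.06% below were. At the milder threshold of 1.2-fold, 3 of 9 and 4 of 5 members were lower, against 10.5% and 14.9% of all genes, and at the stricter 1.5-fold 0 of 9 and 0 of 5, against 1.94% and 4.38%. CSF1R lay just inside the 20% threshold above the lesion at 25.0% lower and GPR34 just outside at 18.4% lower. Below the lesion CX3CR1 lay inside at 24.6% lower and TMEM119 outside at 19.7% lower.

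**Figure D1:**
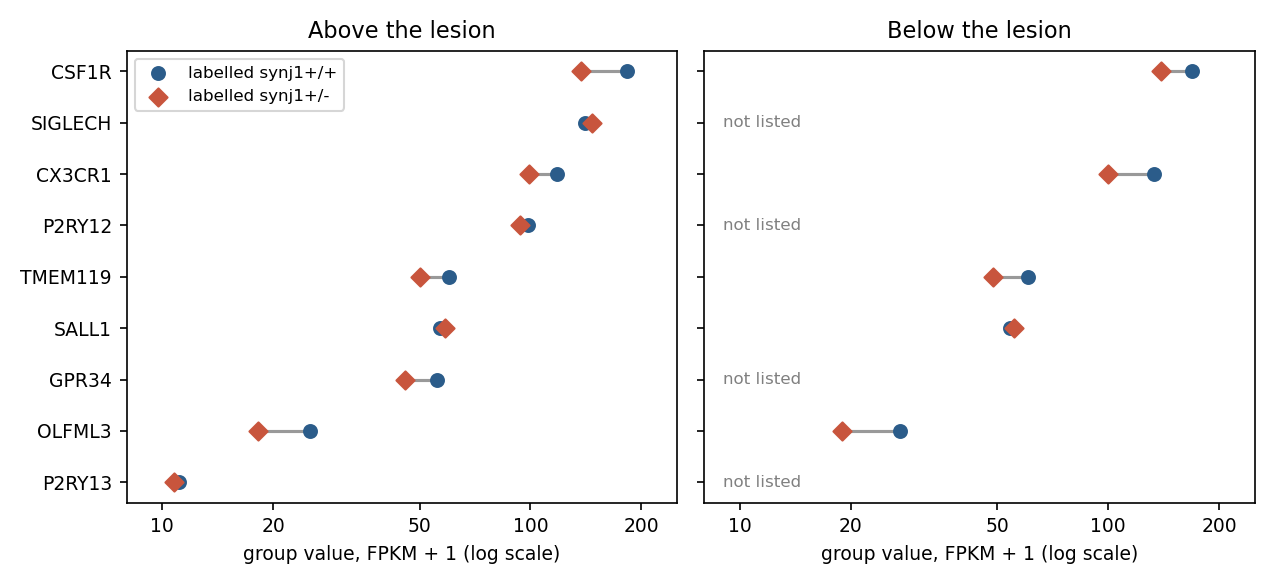
Values of the 9 homeostatic microglia genes (FPKM + 1, log axis) in groups labelled synj1+/+ (circles) and synj1+/- (diamonds) above (left) and below (right) the lesion. Each point combines 3 libraries, so no error bars can be drawn. CSF1R, CX3CR1, TMEM119 and OLFML3 were lower in cord labelled synj1+/- at both sites, and SALL1 was 56.9 and 58.5 above and 54.1 and 55.4 below.

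Among the receptors with protein ligands, CSF1R, the receptor for the growth factors CSF1 and IL34, had the highest level of the members in cord labelled synj1+/+ at both sites, on the length-scaled FPKM + 1 scale. Rostral cord labelled synj1+/+ had 182 and rostral cord labelled synj1+/- had 137, a log2 ratio of -0.41. Below the lesion it was 168 and 139, a log2 ratio of -0.27. The larger difference was thus above the lesion, and the synj1+/- value below was 1.02 times that above. CX3CR1 was 118 and 99.1 above the lesion, a log2 ratio of -0.26, and 133 and 100.2 below it, a log2 ratio of -0.41. Its synj1+/+ value was the higher of the pair at both sites, and the larger difference was below the lesion.

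The ligands of these receptors were read beside them. CX3CL1, the ligand of CX3CR1 that neurons display, was 74.3 and 81.7 above the lesion and 62.4 and 77.9 below it, with log2 ratios of 0.14 and 0.32. It was the higher value in cord labelled synj1+/- at both sites, while its receptor was the lower. CSF1 was lower under that label at both sites, as its receptor was, with log2 ratios of -0.16 above and -0.23 below. IL34, which neurons also make, was 128 and 133 above the lesion and 168 and 128 below it, so its log2 ratio of 0.06 above stood beside -0.39 below. Of the 3 ligands, 1 was past the threshold, IL34 below the lesion.

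The receptors for nucleotides and lysophosphatidylserine were listed above the lesion only. P2RY12, the ADP receptor that draws microglial processes to sites of damage, was 98.6 and 93.9, a log2 ratio of -0.07. P2RY13, a related receptor for ADP, had the lowest level of the 9 members at 11.1 and 10.8, a log2 ratio of -0.04. The values labelled synj1+/- were 4.81% and 3.05% lower, and 34.3% of all genes had a lower log2 ratio than P2RY12. GPR34, a receptor for lysophosphatidylserine, was 55.9 and 45.6, a log2 ratio of -0.29, and 8.90% of all genes had a lower one. P2RY6, a receptor for UDP that takes part in phagocytosis and belongs to a list of other resting microglia genes, was 45.5 and 31.4 above the lesion and 53.4 and 38.6 below it, with log2 ratios of -0.53 and -0.47. The nucleotide receptor outside the member list therefore differed more between the groups than P2RY12 or P2RY13.

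TMEM119 is a membrane protein used as a marker that sets microglia apart from other macrophages. It was 60.1 and 50.1 above the lesion, a log2 ratio of -0.26, and 60.5 and 48.5 below it, a log2 ratio of -0.32. The synj1+/+ values of the sites were nearly equal and the synj1+/- values were lower at both. SIGLECH, a sialic acid binding lectin of microglia and plasmacytoid dendritic cells that signals through the adaptor TYROBP, was 141 and 147 above the lesion, a log2 ratio of 0.06. It had the highest ratio of all members, whereas its adaptor TYROBP was 88.8 and 56.9, a log2 ratio of -0.64. The lectin was thus the higher value and its adaptor the lower value under the label synj1+/-.

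OLFML3, a secreted olfactomedin-like protein, had the lowest ratio of the members at both sites. It was 25.2 and 18.2 above the lesion, a log2 ratio of -0.47, and 27.2 and 18.9 below it, a log2 ratio of -0.52. In cord labelled synj1+/- it was 27.8% lower above and 30.4% lower below the lesion, and 3.27% and 5.22% of all genes had a lower ratio at these sites. SALL1, the transcription factor, was 56.9 and 58.5 above the lesion and 54.1 and 55.4 below it, with a log2 ratio of 0.04 at both sites. It was the only member of the 5 listed at both sites with the higher value in cord labelled synj1+/-.

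Ranked by log2 ratio above the lesion, the members fell into 5 genes between -0.47 and -0.26 (OLFML3, CSF1R, GPR34, TMEM119 and CX3CR1) and 4 genes between -0.07 and 0.06 (P2RY12, P2RY13, SALL1 and SIGLECH), a division made after the values were seen. Levels did not follow this division. The 5 genes ranged from 25.2 to 182 in the synj1+/+ group and the 4 genes from 11.1 to 141. Whether neighbours in this order differ beyond the spread between mice was not tested, since the table holds no single libraries.

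**Figure D2:**
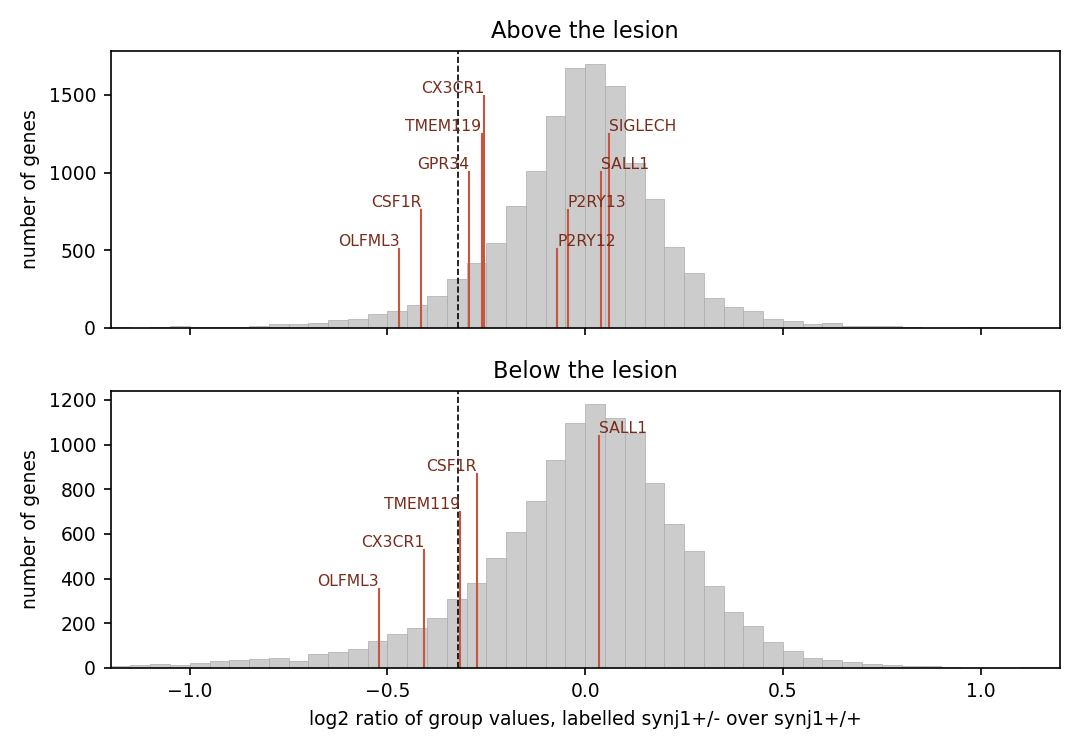
Number of genes (y axis) by log2 ratio of group values, synj1+/- over synj1+/+ (x axis, bins of 0.05), above (top) and below (bottom) the lesion, with each homeostatic gene as a labelled line and the threshold of 20% lower dashed. Line heights only separate the names, and 63 genes above and 123 below lie outside the plotted range. OLFML3 at -0.47 and -0.52 lies farthest to the left of the members, and SALL1 at 0.04 lies near the middle.

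Promoter sequences of 6 of the 9 members were found in the RefSeq table of GRCm38.p6, and CSF1R, GPR34 and TMEM119 had no entry used here. The 250 bases before the start of the genes with the lowest ratio (OLFML3) and the highest ratio (SIGLECH) above the lesion are shown to set these extremes beside each other, with those of P2RY13, the 1 member with a match to GAGGAA. This core of the site bound by PU.1, the factor that sets myeloid identity, is in capitals, and was searched on both strands with its longer form GAGGAAGT, which contains it, and with TATAAA. They are written in the direction of the gene. They lie at chr3:103738002-103738251 (minus strand), chr7:55767934-55768183 (plus strand) and chr3:59210883-59211132 (minus strand) of GRCm38.p6.
OLFML3: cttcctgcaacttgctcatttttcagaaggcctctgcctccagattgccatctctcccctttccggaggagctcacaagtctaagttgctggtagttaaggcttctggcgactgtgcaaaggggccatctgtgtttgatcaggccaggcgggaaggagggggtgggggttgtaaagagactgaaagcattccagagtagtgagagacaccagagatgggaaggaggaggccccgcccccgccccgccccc
SIGLECH: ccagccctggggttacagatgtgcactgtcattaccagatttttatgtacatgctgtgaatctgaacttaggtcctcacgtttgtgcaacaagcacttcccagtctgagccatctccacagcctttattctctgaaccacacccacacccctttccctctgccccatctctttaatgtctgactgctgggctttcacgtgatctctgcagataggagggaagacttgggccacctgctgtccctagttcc
P2RY13: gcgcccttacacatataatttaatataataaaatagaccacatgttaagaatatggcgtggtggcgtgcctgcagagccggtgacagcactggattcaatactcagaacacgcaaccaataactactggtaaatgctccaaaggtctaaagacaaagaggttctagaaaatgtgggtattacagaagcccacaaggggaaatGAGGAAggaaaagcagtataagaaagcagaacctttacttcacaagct

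The match in P2RY13 begins 48 bases before the start. The 6 members have 8 promoters in the table, because SALL1 has more than 1. GAGGAA was found in 1 of these 8 and in 23.3% of the 32851 promoters of the table, from which chromosome 18 was not left out. GAGGAAGT was found in 0 of the 8 member promoters and in 2.44% of all promoters, and TATAAA in 0 of the 8 and in 12.4%. The G and C content of the 250 bases was 57.6% for OLFML3, 50.8% for SIGLECH and 41.6% for P2RY13, where the median of all promoters was 52.4%. A match of letters is not a bound site, and these values say nothing of the factors themselves.

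Some members share their place in the genome with other genes, and the library kit named in the labels does not mark the strand. In the GENCODE annotation of GRCm38, P2RY12 (chr3:59216272-59262871) and P2RY13 (chr3:59207892-59210882) lie within MED12L on the opposite strand, and GPR34 (chrX:13632089-13640858) lies within CASK on the opposite strand. MED12L was 72.4 and 71.4 above the lesion, a log2 ratio of -0.02 beside -0.07 and -0.04 for P2RY12 and P2RY13. CASK was 181 and 145, a log2 ratio of -0.32 beside -0.29 for GPR34. The exons of P2RY12 share 9 bases with those of MED12L, and P2RY13 and GPR34 share 0 exonic bases with their hosts. CSF1R shares 873 exonic bases, or 15.1% of its own, with HMGXB3 on the opposite strand, which was 31.2 and 30.7 above the lesion. The annotated span of CX3CR1 holds several other genes, and its exons share 78 bases with GM33858. Reads of these members and of the overlapping genes cannot be told apart fully, and the part of the hosts in the members' values was not tested. The overlapping genes were named after their values were seen. OLFML3 (chr3:103722222-103738001), TMEM119 (chr5:113793729-113800516), SIGLECH (chr7:55768178-55778925) and SALL1 (chr8:89027235-89044162) overlap 0 annotated genes.

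Other genes of resting microglia were compared with the members. Of 12 such genes listed above the lesion, 11 were lower in cord labelled synj1+/-, 5 of them past the 20% threshold, with a median log2 ratio of -0.30. Below the lesion, 7 of 11 were lower, 4 past the threshold, with a median of -0.14. The other 4, ABI3, ADGRG1, CRYBB1 and LTC4S, were higher there, ABI3 the most at 0.24. LTC4S had the highest ratio above at 0.03. Summed over the list, the ratios were 0.902 above and 0.994 below. Of all genes, 51.0% above and 47.2% below were lower, and 7.45% and 11.5% were past the threshold. The same shares stand beside the counts of each list that follows. FCRLS, an Fc receptor-like protein of microglia, was 109 and 67.0 above and 137 and 82.9 below, with log2 ratios of -0.71 and -0.72. FCRLS differed more between the groups than any member listed at the same site.

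Beside SALL1, the list of other myeloid transcription factors was examined. All 9 factors listed above the lesion and all 8 listed below it were lower in cord labelled synj1+/-, with medians of -0.34 and -0.47, and 5 and 6 of them were past the threshold. MEF2A, a factor that muscle and neurons also make, had the highest ratio above the lesion at 209 and 207, a log2 ratio of -0.01. SPI1, which encodes PU.1 and was picked for that role after the values were seen, was 66.4 and 57.0 above the lesion and 87.6 and 65.5 below it, with log2 ratios of -0.22 and -0.42. IRF8, its partner in microglia and macrophages, had log2 ratios of -0.40 and -0.54. The lowest ratio above the lesion was that of IKZF1, a zinc finger factor of blood cells, at -0.79, followed by RUNX1 at -0.63 and CEBPA at -0.60. These factors are also made by monocytes and macrophages, whereas SALL1 sets microglia apart from them.

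Genes of the transforming growth factor beta axis were lower as a list too, 9 of 9 above and 8 of 8 below the lesion. Their medians were -0.21 and -0.38, with 4 and 5 past the threshold. The receptors TGFBR1 and TGFBR2 had log2 ratios of -0.35 and -0.36 above and -0.45 and -0.47 below. NRROS, which presents the latent ligand on microglia, was 70.4 and 42.0 above the lesion, a log2 ratio of -0.75. The ligand TGFB1 itself was 11.1 and 10.7 above and 15.6 and 11.7 below. Part of the list lay near 0 above the lesion, where 51.0% of all genes were lower. ITGAV and SMAD2 had log2 ratios of -0.02 there, TGFB1 -0.05 and SMAD3 -0.07. The highest ratio below was that of SMAD2 at -0.10.

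**Figure D3:**
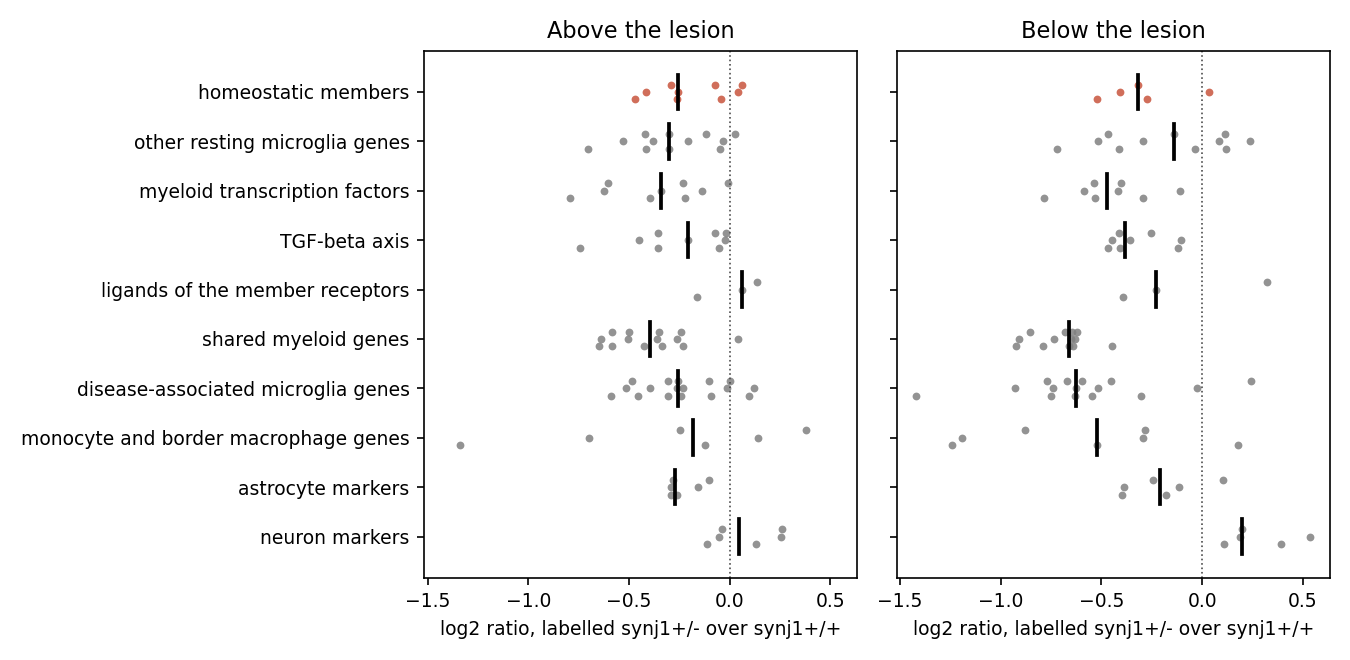
Log2 ratios of group values (x axis, synj1+/- over synj1+/+) of single genes (points) in 10 lists above (left) and below (right) the lesion, with the list median as a black bar and 0 dotted. The homeostatic genes (top row) have medians of -0.26 and -0.32, and the shared myeloid genes -0.39 and -0.66.

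To set the members beside genes that microglia share with all macrophages, 14 shared myeloid genes were summarised, among them the complement genes C1QA, C1QB and C1QC, the lysosomal protein CD68 and the leukocyte antigen PTPRC. Above the lesion 13 of 14 were lower, 10 past the threshold, with a median of -0.39. The exception was AIF1 at 18.2 and 18.7, a log2 ratio of 0.04, although its log2 ratio below the lesion was -0.93. Below the lesion 13 of 13 were lower and past the threshold, with a median of -0.66. The summed values of the 9 members above the lesion were 750 and 660 and those of the 14 shared genes 2971 and 2159, ratios of 0.881 and 0.727. The median of the members exceeded that of the shared genes by 0.14 on the log2 scale above and by 0.34 below the lesion. Above the lesion 7 of 9 members had a higher ratio than the shared median, with OLFML3 and CSF1R the exceptions. Below the lesion 5 of 5 did, and 4 of the 5 lay above each of the shared genes, OLFML3 being the exception. The contrast was 0.13 above the lesion when the 5 members listed at both sites were taken.

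Disease-associated microglia genes are turned on by microglia around damage, in part through TREM2. Of these genes, 14 of 17 were lower above the lesion and 14 of 15 below it. Their medians were -0.25 and -0.63, with 5 and 12 past the threshold. Above the lesion that median lay beside -0.26 of the homeostatic members. Below it the lists stood apart, with IGF1 at -1.42, LGALS3 at -0.93 and LPL at -0.77 as the lowest. Above the lesion these 3 genes had -0.46, -0.09 and 0.00. The highest below was APOE at 0.24, which had -0.48 above, and the highest above was CCL6 at 0.12. These mice express human ApoE4 while reads were aligned to the mouse genome. What the APOE values measure was therefore not settled here. TREM2, listed above only, was 315 and 209, a log2 ratio of -0.59. Monocyte and border macrophage genes were lower in 4 of 6 above and in 6 of 7 below, with medians of -0.18 and -0.52. LYZ2, the lysozyme of monocytes and macrophages, was 381 and 235 above and 1101 and 465 below, and MS4A7, a marker of macrophages that enter from blood or border the cord, 12.4 and 4.92 above and 29.0 and 12.7 below. ARG1, an enzyme of arginine breakdown in macrophages, went the other way at low values of 1.69 and 2.20 above and 3.07 and 3.48 below, log2 ratios of 0.38 and 0.18, and LY6C2, a surface marker of monocytes, had log2 ratios of 0.14 above and -0.88 below. CCR2, CD163, F13A1, LYVE1 and PLAC8 of that list were not listed at either site. The part of these cells in the members' values was not tested.

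In the values as listed, the members stood at similar levels at both sites. Sites were normalised separately, but the median gene had a log2 ratio of below over above of 0.00 in the synj1+/+ groups and 0.02 in the synj1+/- groups. The summed values of all listed genes were less alike, at 1.70e+06 above and 1.33e+06 below in synj1+/+ cord and 1.69e+06 and 1.36e+06 in synj1+/- cord. Levels across the sites thus depend on the scaling, and the folds given here are of the values as listed. In synj1+/+ cord the 5 members listed at both sites were between 0.923 and 1.12 times as high below as above, with CSF1R the lowest and CX3CR1 the highest. In synj1+/- cord they were between 0.947 and 1.04 times as high. The 13 shared myeloid genes listed at both sites were between 1.04 and 1.87 times as high below as above in synj1+/+ cord, with a median of 1.48, and between 0.760 and 1.46 times as high in synj1+/- cord, with a median of 1.19. TYROBP, for example, was 88.8 above and 133 below in synj1+/+ cord, while TMEM119 was 60.1 and 60.5.

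**Figure D4:**
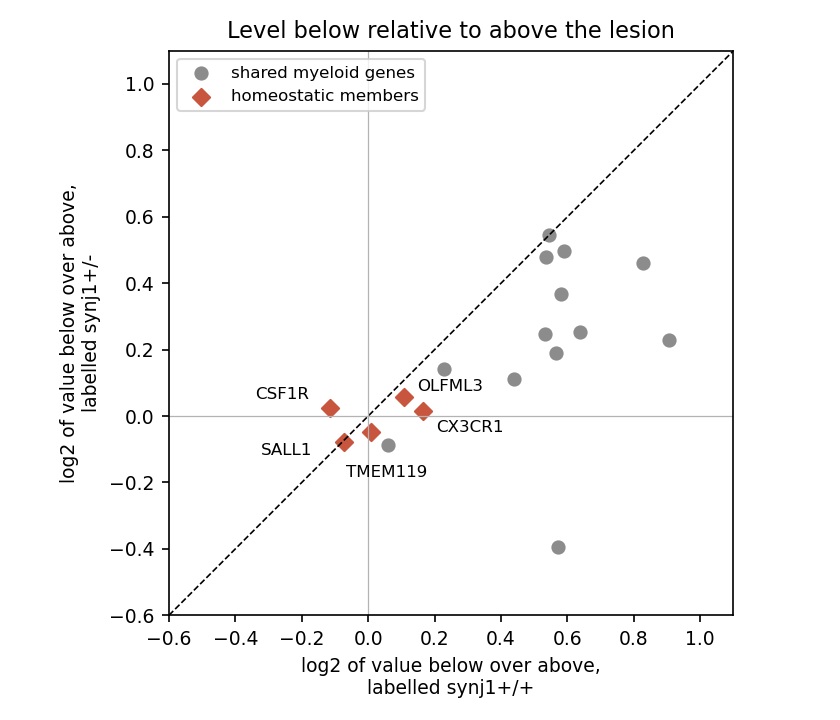
Log2 of the value below over the value above the lesion in cord labelled synj1+/+ (x axis) and in cord labelled synj1+/- (y axis), for the 5 homeostatic genes listed at both sites (diamonds) and 13 shared myeloid genes (circles), with the line of equality dashed. The homeostatic genes lie near 0 on both axes, and the shared myeloid genes lie to the right of 0 on the x axis.

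For the 5 members listed at both sites, the difference between the genotypes was alike at both sites in the median, while single genes shifted in both directions. The log2 ratio below minus that above had a median of -0.05 over the 5 members, beside 0.02 over the 12025 genes listed at both sites, -0.29 for 13 shared myeloid genes and -0.37 for 15 disease-associated genes. It ranged from -0.15 for CX3CR1 to 0.14 for CSF1R, and was -0.01 for SALL1. The study's group sizes count as many mice per genotype for sequencing as there are libraries at a site, so each mouse may have given a rostral and a caudal segment, but the labels do not pair them, and the difference between the sites was not tested.

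Genes with a pair of log2 ratios most like the member medians of -0.26 above and -0.32 below were sought among 93 other genes of the lists, by distance over the 2 sites. The nearest was AXL, a receptor tyrosine kinase for the clearance of dead cells, at -0.24 and -0.30, followed by the transporter SLCO2B1 at -0.21 and -0.29 and the signal transducer SMAD4 at -0.21 and -0.36. The next were GFAP and AQP4, both astrocyte genes, at -0.29 and -0.39 and at -0.29 and -0.40.

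Markers of other cell types differed between the groups as well. Of 6 astrocyte markers, 6 were lower above the lesion and 5 below it, with medians of -0.27 and -0.21. Neuron markers had medians of 0.05 over 6 genes above and 0.20 over 5 below. The fibroblast markers COL1A1, COL1A2, DCN, LUM and PDGFRB had medians of -0.49 above and -2.81 below. Their summed values were 42.2 and 37.3 above and 310 and 58.9 below. PDGFRB went the other way above the lesion at 15.4 and 17.8, a log2 ratio of 0.20, and had -0.49 below. Values above were low for COL1A1, at 4.20 and 2.88, and for LUM, at 2.67 and 1.86. The part of these cell types in the members' values was not tested.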

How the data were processed

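Libraries were made by random priming with a TruSeq kit from total RNA of spinal cord. According to the methods of the study, reads of each site were reduced at random to the smallest library and aligned, and the submitters' processing notes name GRCm38.p6, STAR 2.5.4b and Cuffdiff 1.3.0; the annotation is not given in the sources used here. The deposited FPKM values, upper quartile normalised by the authors within each site, combine the 3 libraries of a group and were read as FPKM plus 1. The table also holds the authors' fold changes, p-values, q-values and significance calls, and a shorter list holds those at their threshold; none was used. The samples were grouped by genotype and site in their labels.

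Ratios of the group values were computed in Python 3.11.15 with numpy 2.4.6 and pandas 2.3.3, with figures by matplotlib 3.10.9, and no test was possible. Counts used a threshold of 20% lower, or the same fold higher, over all listed genes, and the counting was tested on simulated data. Among 13645 and 12337 symbols above and below the lesion, 2 and 1 were repeated; the occurrence listed earlier in the table was used. The members and lists were chosen with earlier results of these data known. The text names the members, the targeted gene, from each list the 3 lowest ratios and the highest at a site or all genes of a list of at most 5, and the 5 genes nearest to the member medians. Not every such gene is printed, and genes outside this rule (SPI1, C1QA, CD68, PTPRC, the genes that overlap members) were chosen after their values were seen. Alternatives were other offsets, scalings, filters and thresholds. The added 1 draws ratios of weakly expressed genes towards 1.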

Additional observations from a re-analysis of the deposited data

How the results depend on the processing

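The 9 members gave 7 summary values, and 53 alternative values were computed for them. Of these, 47 kept their direction and moved by less than 0.1 on the log2 scale or, for counts, stayed within 1.5 times, and 6 counts moved further. Some of the 47 could not move. The filter for a mean value of at least 10 removed no member and no shared myeloid gene. Scaling by the median or sum of all genes cannot alter the contrast of members with shared myeloid genes. With 10 added to both values, 1 member above the lesion was past the threshold in place of 2. The share of all genes with 10 added was not computed, so this count has nothing to be read against. At 1.2-fold, 4 members below the lesion were past it, where 14.9% of all genes were. At 1.5-fold, 0 members were past it above and 0 below, where 1.94% and 4.38% of all genes were. With each member left out in turn, the counts went down to 1 above and 1 below, against 7.45% and 11.5% of all genes at the same threshold. That drop was fixed in advance, since leaving out 1 of 2 members past the threshold leaves 1. The count below the lesion was 3 in place of 2 with the added 1 subtracted and with either scaling, a move within 1.5 times. The share of all genes was not computed for these settings. Of 70 alternative values for single members, 68 moved by less than 0.1, among them those of the filter, which could not move. OLFML3 moved to -0.32 above and -0.36 below with 10 added. Direction stayed the same for every median under these alternatives. No paired analysis was possible because the table holds no single libraries, and for the same reason no library could be left out.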

Other observations

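Cell types that the report does not describe gave these values. The 5 red blood cell markers were higher in the group labelled synj1+/- at both sites, with median log2 ratios of 2.17 above and 0.37 below the lesion. The 4 endothelial markers had medians of 0.07 and -0.14. Of 6 oligodendrocyte markers, 2 were listed, MOBP and MOG, with medians of -0.12 above and 0.04 below. Of 6 granulocyte and lymphocyte markers, 2 were listed, S100A8 and S100A9, with medians of 0.09 and -0.74 at summed values of 5.87 and 6.19 above and 20.8 and 13.9 below. None of these differences was tested.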
